A study of Mus musculus with 4 samples.

Results

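The response to TNF was measured in primary chondrocytes of Prrx1-Cre; Rela fl/fl mice, which the labels call Rela cKO, as the array with TNF against the array without it. These were 2 of the 4 arrays hybridised, 1 for each combination of genotype and treatment, and the other two, called the Rela fl/fl controls below, held chondrocytes of Rela fl/fl mice. Cells of both genotypes came from 6-day-old C57BL/6J littermates and were kept for 3 days with or without 10 ng/mL TNF. All 4 groups carried the floxed Rela alleles, and the groups differed in the Cre transgene and in the cytokine. In Prrx1-Cre mice the recombinase is driven by a Prrx1 promoter that is active in undifferentiated limb bud mesenchyme, before chondrocytes form. Whether 1 animal or a pool gave each culture is not given in the sources used here. Each culture was read on 1 array, so no difference has a replicate check, no test between conditions was run, and the values measure these arrays.

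TNF binds its receptors on the cell surface and, through adaptor proteins, ubiquitin ligases and the IKK kinases, releases NF-κB dimers from their IκB inhibitors. Rela (p65) is the subunit that carries the transactivation domain of the most common dimer, and its targets include chemokines, acute-phase proteins, matrix-degrading enzymes and the inhibitors that switch the pathway off again. TNF receptors also activate the kinases that drive AP-1 factors, and the non-canonical NF-κB pathway acts through Relb and Nfkb2. In chondrocytes, TNF is known as a catabolic cytokine that lowers matrix synthesis and raises proteinases. The comparison describes which of these genes still responded in cells labelled cKO.

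Signals below are the deposited intensity divided by the 75th percentile of the same array, so a signal of 1 is that percentile, and a log2 change is the array with TNF minus the array without TNF. Each array carried 59305 transcript spots, and 57.28% and 58.11% of the probes were well above background on the cKO-labelled arrays without and with TNF. The only spread available was technical: between repeated spots of 1 probe, a log2 difference between the cKO-labelled arrays had an SD of 0.138, or 0.276 for 2 such spreads, which leaves out the spread between cultures. Rela itself, the main subunit of canonical NF-κB, read 28.4 and 34.9 in the Rela fl/fl controls before the cytokine and with it, as in all pairs of signals below, and 34.03 and 40.2 on the cKO-labelled arrays. The Rela signal was thus not lower on the cKO-labelled arrays, and where its probe lies relative to the deleted exons is not given in the sources used here, so the labels are used as names throughout. All 15 chondrocyte marker genes were well above background on both arrays. Col2a1, the collagen of cartilage, read 597 and 610 in the Rela fl/fl controls and 584 and 608 on the cKO-labelled arrays. The sum of the chondrocyte marker signals was 1452 without and 1490 with TNF on the cKO-labelled arrays. Of 18 macrophage and leukocyte markers, 9 were well above background on both arrays and 7 on neither, and their summed signal was 47.2 without and 38.6 with TNF. Most of that sum was 1 probe of Itgam, at 40.4 and 31.8, and the other two Itgam probes changed by 0.19 and -0.05. In RNA from whole cultures, fewer cells of a type and less RNA per cell cannot be told apart.

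Most genes differed little between the cKO-labelled arrays. Of 22496 genes or unnamed transcripts well above background on both, 100 were at least 2-fold higher with TNF, which is 0.445%, and 482 were at least 2-fold lower, which is 2.14%. In all, 76.3% of the features lay within 2 technical spreads of 0, and the median log2 change was 0.06. The array without TNF had patches of spots that were bright on that array alone, and of the lower features read by 1 spot, 59.3% lay in such a patch, against 9.97% of all features. Of the higher features read by 1 spot, 7.07% lay in a patch of the array with TNF, against 1.01% of all features. With the patches of both arrays left out, 92 of 20625 features were higher, which is 0.446%, and 200 were lower, which is 0.97%. A stricter definition, which compared the brightness of spots between these 2 arrays only and was chosen after the data were seen, left 90 higher and 179 lower of 20251. Of these, 67 of the higher features but only 23 of the lower ones had a gene symbol. Among the 7393 features with a symbol and a mean signal of 1 or more, 22 were higher and 0 were lower. At a mean signal of 0.1 to 1 the named features were 33 higher and 8 lower, and under 0.1 these counts were 12 and 15. The named rises are therefore described first. Counts past 2-fold in the gene lists below are to be read against the 0.445% higher and 2.14% lower of all features. Counts within 2 technical spreads are to be read against the 76.3% of all features.

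**Figure D1:**
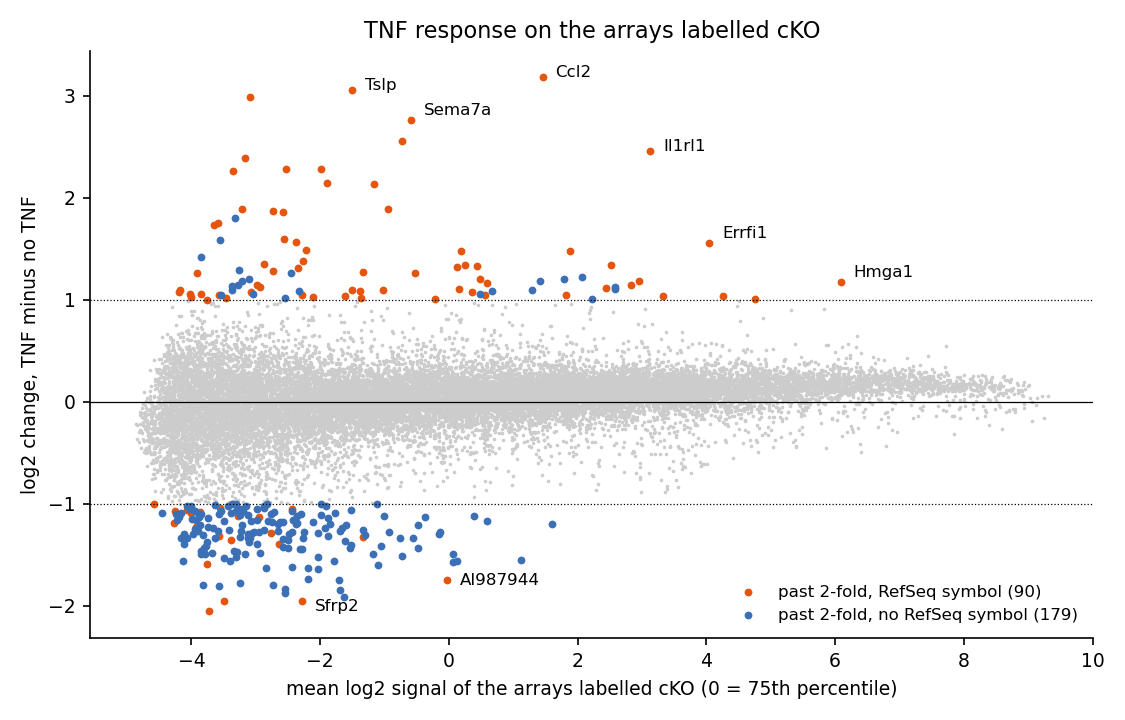
Log2 change with TNF on the cKO-labelled arrays (vertical axis) against the mean log2 signal of both arrays (horizontal axis, 0 is the 75th percentile), for 20251 features outside patches set within the pair. Orange points are the 90 features past 2-fold with a RefSeq symbol and blue points the 179 without one. Of the named rises, Ccl2, Il1rl1, Errfi1 and Hmga1 have mean signals above the 75th percentile and Tslp and Sema7a below it, and most falls are unnamed features of low signal.

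Several chemokines were among the rises. Of 18 CC chemokines, 9 were well above background on both arrays, and Ccl2 and Ccl5 rose, with 0 falls and a list median of 0.30, which was -0.022 with no filter on dim probes, 0 with the filter on the brighter array only and 0.49 with quantile normalization. Of the CXC and CX3C chemokines, 9 were measured on both arrays, and Cxcl10, Cxcl1, Cxcl5 and Cx3cl1 rose, with 0 falls. The median of this list was 0.05, or 0.62 with patches left out, and 5 of the 9 genes were above 0. Ccl2, which attracts monocytes, read 0.919 and 29.8 in the Rela fl/fl controls and 0.916 and 8.23 on the cKO-labelled arrays. It started from the same signal in both genotypes and had the largest rise of any named gene well above background on both cKO-labelled arrays, 3.17 in log2, against 5.02 in the Rela fl/fl controls. Ccl5, which attracts T cells, read 0.128 and 1.34 in the Rela fl/fl controls and 0.0417 and 0.33 on the cKO-labelled arrays, changes of 3.39 and 2.98. Both of its signals were lower on the cKO-labelled arrays. The neutrophil chemokine Cxcl1 read 0.221 and 1.78 in the Rela fl/fl controls and 0.129 and 0.361 on the cKO-labelled arrays, changes of 3.00 and 1.48. Cxcl5, another neutrophil chemokine, read 1.02 and 6.36 and then 0.686 and 1.72, changes of 2.64 and 1.32. For both genes the change on the cKO-labelled arrays was the smaller one, and the difference was not tested.

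Cxcl10, the interferon-inducible chemokine, read 0.187 and 0.339 in the Rela fl/fl controls and 0.0786 and 0.383 on the cKO-labelled arrays. Its change was 2.28 on the cKO-labelled arrays and 0.86 in the Rela fl/fl controls, and its spot lay in a bright patch of the untreated Rela fl/fl array, with no other spot to set against it. Cx3cl1, a chemokine anchored in the membrane, read 5.23 and 6.97 in the Rela fl/fl controls and 5.12 and 11.7 on the cKO-labelled arrays, a change of 1.19 against 0.41. Its 2 signals without TNF were close together and its highest signal was on the TNF-treated cKO-labelled array. Cxcl3 was well above background on the array with TNF only and was at least 4.05-fold higher there. Ccl7, a relative of Ccl2, read 1.18 and 12.9 in the Rela fl/fl controls and 3.4 and 4.19 on the cKO-labelled arrays, a change of 0.30, and its spot lay in a bright patch. Cxcl12, which retains progenitor cells in the marrow, read 12.9 and 10.3 on the cKO-labelled arrays, a change of -0.33.

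Upstream sequences are shown for 5 of these and the following rises to let the reader see the motif content near the start sites of genes that responded in both genotypes (Cxcl1, Mmp3), past 2-fold on the cKO-labelled arrays and by 0.86 in the controls, from a spot in a bright patch (Cxcl10), or past 2-fold on the cKO-labelled arrays alone (Krt18, Gjb2). Each is the 250 bases before the start site in RefSeq, build GRCm38.p6, written 5′ to 3′ on the strand of the gene. Capitals mark matches to the NF-κB (κB) decamer consensus or to the AP-1 consensus TGANTCA, searched on both strands, with overlapping matches joined. Cxcl1 lies on the plus strand at chr5:90890995-90891244, Cxcl10 on the minus strand at chr5:92348890-92349139, Mmp3 on the plus strand at chr9:7445572-7445821, Krt18 on the plus strand at chr15:102027966-102028215 and Gjb2 on the minus strand at chr14:57104703-57104952.
Cxcl1: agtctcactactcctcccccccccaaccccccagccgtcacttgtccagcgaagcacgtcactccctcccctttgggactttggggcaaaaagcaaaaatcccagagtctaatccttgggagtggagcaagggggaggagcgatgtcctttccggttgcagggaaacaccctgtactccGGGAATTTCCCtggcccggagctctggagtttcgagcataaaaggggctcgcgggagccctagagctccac
Cxcl10: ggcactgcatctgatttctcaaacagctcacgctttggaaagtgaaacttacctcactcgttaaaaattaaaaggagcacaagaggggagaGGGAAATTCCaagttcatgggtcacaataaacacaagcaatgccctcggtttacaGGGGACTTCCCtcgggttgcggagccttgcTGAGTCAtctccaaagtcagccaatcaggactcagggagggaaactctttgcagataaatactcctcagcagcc
Mmp3: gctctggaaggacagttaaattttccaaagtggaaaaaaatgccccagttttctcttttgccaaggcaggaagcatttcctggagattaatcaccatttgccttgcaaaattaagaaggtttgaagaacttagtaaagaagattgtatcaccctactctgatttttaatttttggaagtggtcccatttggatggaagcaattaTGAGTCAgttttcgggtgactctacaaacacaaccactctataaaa
Krt18: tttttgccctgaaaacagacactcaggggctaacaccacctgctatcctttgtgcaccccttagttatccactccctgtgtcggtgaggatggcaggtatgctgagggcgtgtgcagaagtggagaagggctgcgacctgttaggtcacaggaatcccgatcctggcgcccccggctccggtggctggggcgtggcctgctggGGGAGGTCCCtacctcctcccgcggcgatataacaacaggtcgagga
Gjb2: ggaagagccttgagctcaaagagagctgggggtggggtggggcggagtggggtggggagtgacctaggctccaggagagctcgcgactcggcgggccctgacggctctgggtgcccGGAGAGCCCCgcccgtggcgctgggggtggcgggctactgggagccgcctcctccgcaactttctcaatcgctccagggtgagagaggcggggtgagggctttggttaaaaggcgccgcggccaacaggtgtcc
The capitals begin 71 bases before the start for Cxcl1 and 46 bases before it for Mmp3, where the match is to AP-1. For Cxcl10, κB matches begin at 159 and 104 bases and an AP-1 match at 74. The κB matches begin 47 bases before the start for Krt18 and 134 bases before it for Gjb2. All 5 sequences shown hold a match, so these are not typical of the rises. The searched sequences of the rises Il1rl1, Traf1, Sema7a, Cx3cl1, Errfi1, Cd44, Tnfsf11, Rgs16 and Adam8 held no match to either motif. Of the 69 named genes higher on the cKO-labelled arrays outside patches, 45 had an upstream sequence in the table, and 10 of these (22.2%) held a κB match and 4 (8.89%) an AP-1 match. Of all 32851 upstream sequences, 7.25% held a κB match and 6.75% an AP-1 match, and counted per gene, as here, the shares were 8.23% and 7.82% of 27025 genes. Outside the patches of all 4 arrays, a κB match stood in 26.1% of the 23 sequences found for genes higher on the cKO-labelled arrays and in 22.9% of the 35 for genes higher in the Rela fl/fl controls. A match is a run of letters and was not measured as a binding site.

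Among cytokines and colony-stimulating factors, 3 of the 14 genes measured on both arrays rose, 0 fell and the median was 0.23. Over all features 0.445% rose and 2.14% fell. Tslp, an epithelial-type cytokine that acts on dendritic cells, read 0.262 and 0.172 in the Rela fl/fl controls and 0.122 and 1.02 on the cKO-labelled arrays. Its change was 3.06 on the cKO-labelled arrays and -0.61 in the Rela fl/fl controls, so the 2 genotypes moved in opposite directions. Tnfsf11 (RANKL), the osteoclast differentiation factor, read 0.0454 and 0.153 on the cKO-labelled arrays, a change of 1.75. Its probe was not well above background on the untreated Rela fl/fl array and read 0.689 there with TNF, in a bright patch. Il34, a ligand of the CSF-1 receptor, read 1.13 and 1.76 in the Rela fl/fl controls and 0.75 and 1.9 on the cKO-labelled arrays, a change of 1.34 against 0.64. Il6, a standard TNF-induced cytokine, was not well above background on either cKO-labelled array and read 0.389 on the TNF-treated Rela fl/fl array.

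The receptor Il1rl1 (ST2), which binds IL-33, read 4.56 and 15.1 in the Rela fl/fl controls and 3.73 and 20.5 on the cKO-labelled arrays. Its change was 2.46 on the cKO-labelled arrays and 1.73 in the Rela fl/fl controls, and a second probe of the gene gave 1.96 on the cKO-labelled arrays. Of 20 cytokine and Toll-like receptors measured on both arrays, Il1rl1 was the only rise. One receptor, Il1rap, fell by 1.83, and its spot lay in a bright patch of the array without TNF. Tlr2, the receptor for bacterial lipoproteins, changed by 0.36 on the cKO-labelled arrays and by 1.02 in the Rela fl/fl controls. Sema7a, a membrane-anchored semaphorin, read 0.22 and 0.189 in the Rela fl/fl controls and 0.256 and 1.74 on the cKO-labelled arrays. It stood at similar signals on 3 arrays and rose by 2.76 on the log2 scale on the fourth, the TNF-treated cKO-labelled array.

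All 20 genes of the NF-κB feedback list were measured, and their median change was 0.31 against 0.06 over all features. Of these genes 9 lay within 2 technical spreads of 0 and 18 were above 0, or 16 without scaling of the arrays or with quantile normalization. Counts above 0, here and below, are to be read against all 22496 features, of which 13670 were above 0 as reported, 8984 without scaling and 13399 of 22499 with quantile normalization. Without scaling the median of all features moved by -0.10 to -0.05, and so did every gene and list median on the cKO-labelled arrays by the same amount. Otud7b alone passed 2-fold, at 1.15, and its spot lay in bright patches. Nfkbia, which encodes IκBα, read 3.5 and 9.98 in the Rela fl/fl controls and 3.35 and 6.12 on the cKO-labelled arrays, changes of 1.51 and 0.87. Tnfaip3 (A20), the ubiquitin-editing inhibitor, read 0.254 and 0.874 and then 0.24 and 0.343, changes of 1.78 and 0.51. Both genes started at similar signals in the 2 genotypes and reached lower ones with TNF on the cKO-labelled array. Bcl3, a nuclear IκB protein, changed by 0.35 on the cKO-labelled arrays and by 1.31 in the Rela fl/fl controls. Tnfaip2, another TNF-induced gene, changed by 0.90 on the cKO-labelled arrays and by 0.80 in the Rela fl/fl controls. Of the NF-κB subunits and IKK kinases, 14 were measured and 0 passed 2-fold. The non-canonical subunit gene Nfkb2 changed by 0.66 on the cKO-labelled arrays and 0.75 in the Rela fl/fl controls, with its spot in a bright patch of the untreated cKO-labelled array, and its partner Relb by 0.57 and 1.02.

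Traf1, an adaptor of TNF receptors, was the only one of 15 TRAF, IAP and survival genes past 2-fold. It read 0.225 and 0.452 in the Rela fl/fl controls and 0.212 and 0.931 on the cKO-labelled arrays, a change of 2.13 against 1.01. The signals without TNF were close together, and the spot lay in a bright patch of the TNF-treated Rela fl/fl array. The ubiquitin ligase genes Birc2 and Birc3 changed by -0.01 and 0.29 on the cKO-labelled arrays, and Traf2 by 0.32. Of 15 TNF and death receptors with their adaptors and 13 members of the BCL2 family, 0 passed 2-fold in either direction. The regulatory subunit of PI3 kinase, Pik3r1, changed by -0.36, the calcineurin subunit Ppp3cc by 0.12, Map3k14 (NIK) by 0.51 and Cflar, the inhibitor of caspase-8, by -0.05. Of 21 genes that the study names, 0 passed 2-fold on the cKO-labelled arrays and 15 lay within 2 technical spreads of 0.

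Of 11 matrix metalloproteinases measured on both arrays, Mmp3 and Mmp10 rose and Mmp19 was lower by 1.09 on the log2 scale. Mmp3 (stromelysin 1), which degrades proteoglycan and activates other proteinases, read 0.616 and 15.3 in the Rela fl/fl controls and 0.249 and 1.47 on the cKO-labelled arrays. Its change of 2.56 on the cKO-labelled arrays was smaller than that of 4.64 in the Rela fl/fl controls, and its signal was lower on both cKO-labelled arrays. The spots of Mmp10 and Mmp19 each lay in a bright patch, and without patches Mmp3 was the only metalloproteinase past 2-fold. Mmp13, the main collagenase of cartilage, read 6.08 and 12.9 in the Rela fl/fl controls and 12.5 and 11.5 on the cKO-labelled arrays, changes of 1.09 and -0.12. Its signal on the untreated cKO-labelled array was already near that of Rela fl/fl cells with TNF. Adamts5, the aggrecanase most closely tied to cartilage loss in mice, read 0.446 and 0.423 in the Rela fl/fl controls and 0.519 and 0.352 on the cKO-labelled arrays, a change of -0.56. The membrane proteinase Adam8 read 1.51 and 2.46 in the Rela fl/fl controls and 2.2 and 6.16 on the cKO-labelled arrays, a change of 1.48 against 0.71, with its spot in a bright patch of the TNF-treated Rela fl/fl array.

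**Figure D2:**
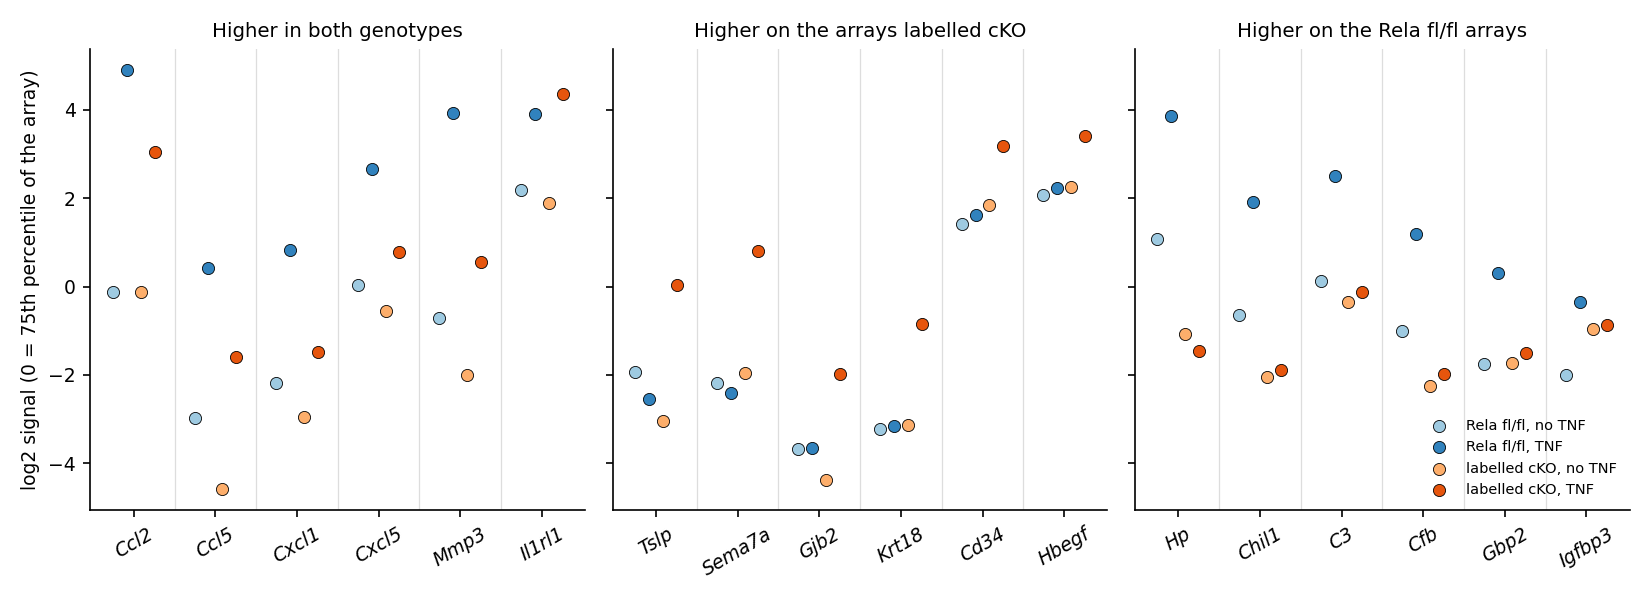
Log2 signal (vertical axis, 0 is the 75th percentile of the array) of 18 genes on each of the 4 arrays, 1 point per array and no error bar, since each group is 1 array. Ccl2, Ccl5, Cxcl1, Cxcl5, Mmp3 and Il1rl1 were higher with TNF in both genotypes, Tslp, Sema7a, Gjb2, Krt18, Cd34 and Hbegf on the cKO-labelled arrays, and Hp, Chil1, C3, Cfb, Gbp2 and Igfbp3 in the Rela fl/fl controls.

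Several groups of TNF-induced genes showed little change on the cKO-labelled arrays, as did most features. Of all features, 0.445% rose past 2-fold there and 1.01% in the Rela fl/fl controls, so a count of 0 rises is near the overall share. Among acute-phase and innate defence proteins, 1 of 9 genes measured on both arrays rose and the median was 0.15, while 5 of 9 rose in the Rela fl/fl controls with a median of 1.18. The rise was that of Lcn2, which binds bacterial siderophores. Lcn2 read 4.65 and 11.9 in the Rela fl/fl controls and 2.68 and 6.07 on the cKO-labelled arrays, changes of 1.36 and 1.18, and its spot lay in a bright patch of the untreated cKO-labelled array. Hp (haptoglobin) read 2.11 and 14.5 in the Rela fl/fl controls and 0.478 and 0.363 on the cKO-labelled arrays, changes of 2.78 and -0.40, with its spot in a bright patch of the untreated Rela fl/fl array. Chil1, a chitinase-like protein of inflamed cartilage, read 0.637 and 3.77 and then 0.244 and 0.27, changes of 2.56 and 0.15. Both genes were lower on the cKO-labelled arrays also without TNF. Saa3, an acute-phase apolipoprotein, was not well above background on either cKO-labelled array and read 10.2 on the TNF-treated Rela fl/fl array.

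Complement genes gave 0 rises and 0 falls among 16 measured, with a median of 0.02 that turned to -0.08 without scaling. C3, the central component, read 1.09 and 5.66 in the Rela fl/fl controls and 0.788 and 0.914 on the cKO-labelled arrays, changes of 2.37 and 0.21. Its second probe gave 1.24 on the cKO-labelled arrays and 3.40 in the Rela fl/fl controls, partly in a bright patch, so the probes of C3 differed by about 1 in log2 in the same direction. Of 19 MHC class I and antigen-processing genes, 0 passed 2-fold and the median was 0.23, against 0.58 in the Rela fl/fl controls. Psmb8, an immunoproteasome subunit, changed by 0.69 on the cKO-labelled arrays and 1.37 in the Rela fl/fl controls. Of 28 interferon response genes, 0 rose on the cKO-labelled arrays, with a median of 0.01 that turned to -0.09 without scaling. Gbp3, an interferon-induced GTPase, was lower by 2.11 on the log2 scale, with its spot in a bright patch. Gbp2, a related GTPase, read 0.296 and 1.25 in the Rela fl/fl controls and 0.302 and 0.354 on the cKO-labelled arrays, changes of 2.07 and 0.23. The 2 signals without TNF were alike, and only the TNF-treated Rela fl/fl array was higher. Vcam1 and Icam1, which tether leukocytes, changed by 0.25 and 0.23 on the cKO-labelled arrays and by 0.97 and 0.93 in the Rela fl/fl controls.

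Genes of epidermis and simple epithelium were among the rises. Gjb2 (connexin 26), a gap junction protein, read 0.0782 and 0.0799 in the Rela fl/fl controls and 0.0485 and 0.255 on the cKO-labelled arrays, a change of 2.39 against 0.03. Krt18, a keratin of simple epithelia, read 0.107 and 0.113 in the Rela fl/fl controls and 0.115 and 0.557 on the cKO-labelled arrays, a change of 2.28 against 0.07. Krt17, a keratin of wounded epidermis, read 0.172 and 0.133 and then 0.254 and 0.613, changes of -0.38 and 1.27. For each of these genes the TNF-treated cKO-labelled array stood apart from the other three. Crct1 read 0.679 and 1.89 on the cKO-labelled arrays, a change of 1.48, and Lce3c and Lce3b, components of the cornified envelope, changed by 1.33 and 1.26. In the Rela fl/fl controls the changes of Crct1, Lce3c and Lce3b were -0.07, -0.02 and 0.22.

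A list of 26 epidermal and keratinocyte genes, drawn up after these values were seen, gave 7 rises and 0 falls among 16 genes measured on both arrays, with a median of 0.44. In the Rela fl/fl controls the same list gave 0 rises and a median of 0.01. The choice of this list used these rises, so its count describes them and is no separate evidence. Its summed signal was 12.7 without and 17.3 with TNF on the cKO-labelled arrays, and 11.1 and 9.98 in the Rela fl/fl controls. The defining keratinocyte genes did not move with it: Krt5 read 0.140 without and 0.140 with TNF, and Krt14 0.0885 and 0.0896, on the cKO-labelled arrays. Krt8, the partner of Krt18, Krt1, Krt6a, Epcam, Cdh1 and Ivl were not well above background on either cKO-labelled array. Serpinb2 (PAI-2), a serpin that is induced in stressed cells, was well above background on the array with TNF only and was at least 7.11-fold higher there.

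Some ligands and feedback genes of the EGF receptor and the kinases below it rose. Hbegf, a membrane-bound ligand, read 4.18 and 4.72 in the Rela fl/fl controls and 4.79 and 10.6 on the cKO-labelled arrays, a change of 1.15 against 0.18. Ereg (epiregulin), another ligand, read 0.528 and 0.914 and then 0.923 and 2.12, changes of 0.79 and 1.20. Errfi1, an inhibitor of the receptor that is induced by its activity, read 9.94 and 16.2 in the Rela fl/fl controls and 9.64 and 28.3 on the cKO-labelled arrays, a change of 1.55 against 0.70. In all 3 genes the TNF-treated cKO-labelled array was the highest of the 4. Dusp6, the phosphatase that inactivates ERK, read 4.67 and 4.88 in the Rela fl/fl controls and 4.79 and 9.82 on the cKO-labelled arrays, a change of 1.04, with its spot in a patch set within the pair. Etv4, a transcription factor induced by ERK, changed by 0.82 and the receptor Egfr itself by 0.12. The other ligands measured on both arrays, Tgfa, Egf and Epgn, changed by 0.24, -0.42 and -0.80, and the inhibitor Spry2 by -0.09. A list of 21 such genes, also drawn up after the values were seen, gave 5 rises and 0 falls among 18 measured, with a median of 0.64. Outside patches set within the pair, 3 of 15 rose and the median was 0.38. In the Rela fl/fl controls 0 rose, with a median of 0.05.

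Of 20 AP-1 and immediate-early factors, 2 rose and 0 fell, with a median of 0.25. Of these factors 18 were above 0, and 11 lay within 2 technical spreads of it. Fosl1 (Fra-1), a Fos-related subunit of AP-1, read 0.598 and 0.817 in the Rela fl/fl controls and 0.878 and 1.86 on the cKO-labelled arrays, a change of 1.08 against 0.45. Maff, a small Maf factor, read 0.467 and 0.789 and then 0.609 and 1.22, changes of 0.76 and 1.003. The spots of Fosl1 and Maff each lay in a bright patch of a Rela fl/fl array. Jun, the other partner in AP-1, changed by 0.68, and Fos by -0.01. The regulators of G protein signalling Rgs16 and Rgs14, which shorten signalling through heterotrimeric G proteins, changed by 1.89 and 1.88 on the cKO-labelled arrays. Rgs16 read 0.171 and 0.312 in the Rela fl/fl controls and 0.269 and 0.996 on the cKO-labelled arrays. Rgs14 read 0.0895 and 0.0828 and then 0.0783 and 0.287. Neither passed 2-fold in the Rela fl/fl controls, where the changes were 0.86 and -0.11. In a list of the family drawn up after the values were seen, 2 of 11 measured genes rose and 1 was lower, with a median of 0.27. The lower gene was Rgs5, at -2.29 with its spot in a bright patch, and Rgs4 changed by -0.58.

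Surface and chromatin proteins were also among the rises. Cd34, a sialomucin of stromal, endothelial and blood progenitor cells, read 2.67 and 3.07 in the Rela fl/fl controls and 3.61 and 9.13 on the cKO-labelled arrays, a change of 1.34, and another probe gave 1.44. The endothelial genes Ecscr and Plvap, outside the marker list, changed by 1.28 and 1.101, and another probe of Plvap gave 0.47. Of the 8 endothelial markers listed, 2 were measured on both arrays, Kdr, which changed by 0.23, and Pecam1, which changed by -0.44. Of these, 0 passed 2-fold, and the part of endothelial cells in these values was not tested. Hmga1, a chromatin protein of growing cells, read 31.2 and 38.3 in the Rela fl/fl controls and 45.2 and 101.7 on the cKO-labelled arrays, a change of 1.17. Its other probes gave 1.06 and 0.06, so its probes disagreed. Cd44, the hyaluronan receptor, read 4.58 and 6.33 in the Rela fl/fl controls and 7.03 and 14.4 on the cKO-labelled arrays, a change of 1.03, while its other probes gave 0.82 and 0.06. Of the 90 higher features, 14 had another probe, and 15 of the 18 other probes had the same sign, of which 10 passed 1.5-fold and 8 passed 2-fold.

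The other named rises had varied functions. Ptpn22, a phosphatase that restrains antigen receptor signalling, read 0.0882 and 0.32 on the cKO-labelled arrays, a change of 1.86, and was not well above background on the untreated Rela fl/fl array. Slco4a1, an organic anion transporter, read 0.0447 and 0.214, a change of 2.26. Ch25h, which makes the oxysterol 25-hydroxycholesterol, read 0.373 and 1.1 in the Rela fl/fl controls and 0.125 and 0.31 on the cKO-labelled arrays, changes of 1.56 and 1.31. The spot of Ch25h lay in a bright patch of the untreated Rela fl/fl array, as did that of Slco4a1, which was not well above background there. Itgb3, the beta subunit of the vitronectin receptor, read 0.762 and 1.64 on the cKO-labelled arrays, a change of 1.102 against 0.19. The 10 largest bounds, for named genes well above background with TNF only, were at least 3.004- to 15.5-fold higher. The 10 largest bounds in the other direction were at least 7.63- to 34.6-fold lower, and 8 of these had spots in bright patches of a Rela fl/fl array.

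Cartilage matrix genes changed little, as did most features. Of 23 measured, 0 passed 2-fold, when 0.445% of all features were higher and 2.14% lower. Within 2 technical spreads of 0 lay 18 of these genes, against 76.3% of all features. Their median was 0.12, or 0.018 without scaling and 0.036 with quantile normalization. Above 0 were 18 genes as reported, 12 without scaling and 13 with quantile normalization. In the Rela fl/fl controls the median was -0.22. Acan, which encodes aggrecan, read 100.5 and 81.9 in the Rela fl/fl controls and 66 and 58.9 on the cKO-labelled arrays, changes of -0.30 and -0.17, with its spot in a bright patch of the TNF-treated cKO-labelled array. Its signal was lower on the cKO-labelled arrays at each treatment, and its change with TNF on those arrays lay within 2 technical spreads of 0. Sox9, the master regulator of chondrocytes, changed by -0.04 and Col10a1, the collagen of hypertrophic cartilage, by -0.05. Spp1 (osteopontin), a mineral-binding matrix protein, read 24.1 and 42.3 in the Rela fl/fl controls and 29.2 and 54.7 on the cKO-labelled arrays, changes of 0.81 and 0.90. Ccnd1 (cyclin D1) read 35.6 and 34.2 and then 47.6 and 70, changes of -0.06 and 0.56. Of 32 genes of the cell cycle and DNA replication, 0 passed 2-fold, with a median of 0.06 that turned to -0.04 without scaling.

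All 25 hypoxia and glycolysis genes changed by more than 0, with 0 past 2-fold, 15 within 2 technical spreads and a median of 0.20, or 0.102 without scaling and 0.112 with quantile normalization, and the number above 0 was 21 without scaling and 18 with quantile normalization. The median was 0.46 in the Rela fl/fl controls. Of 13 metallothionein and zinc transport genes, 13 were above 0 as reported and 8 without scaling, and 9 lay within 2 technical spreads, with a median of 0.22 as reported and 0.117 without scaling. Of 20 antioxidant enzymes and 15 genes of prostaglandin and nitric oxide synthesis, 0 passed 2-fold. Ptgs2 (COX-2), the inducible prostaglandin synthase, changed by 0.81 on the cKO-labelled arrays and by 0.59 in the Rela fl/fl controls.

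**Figure D3:**
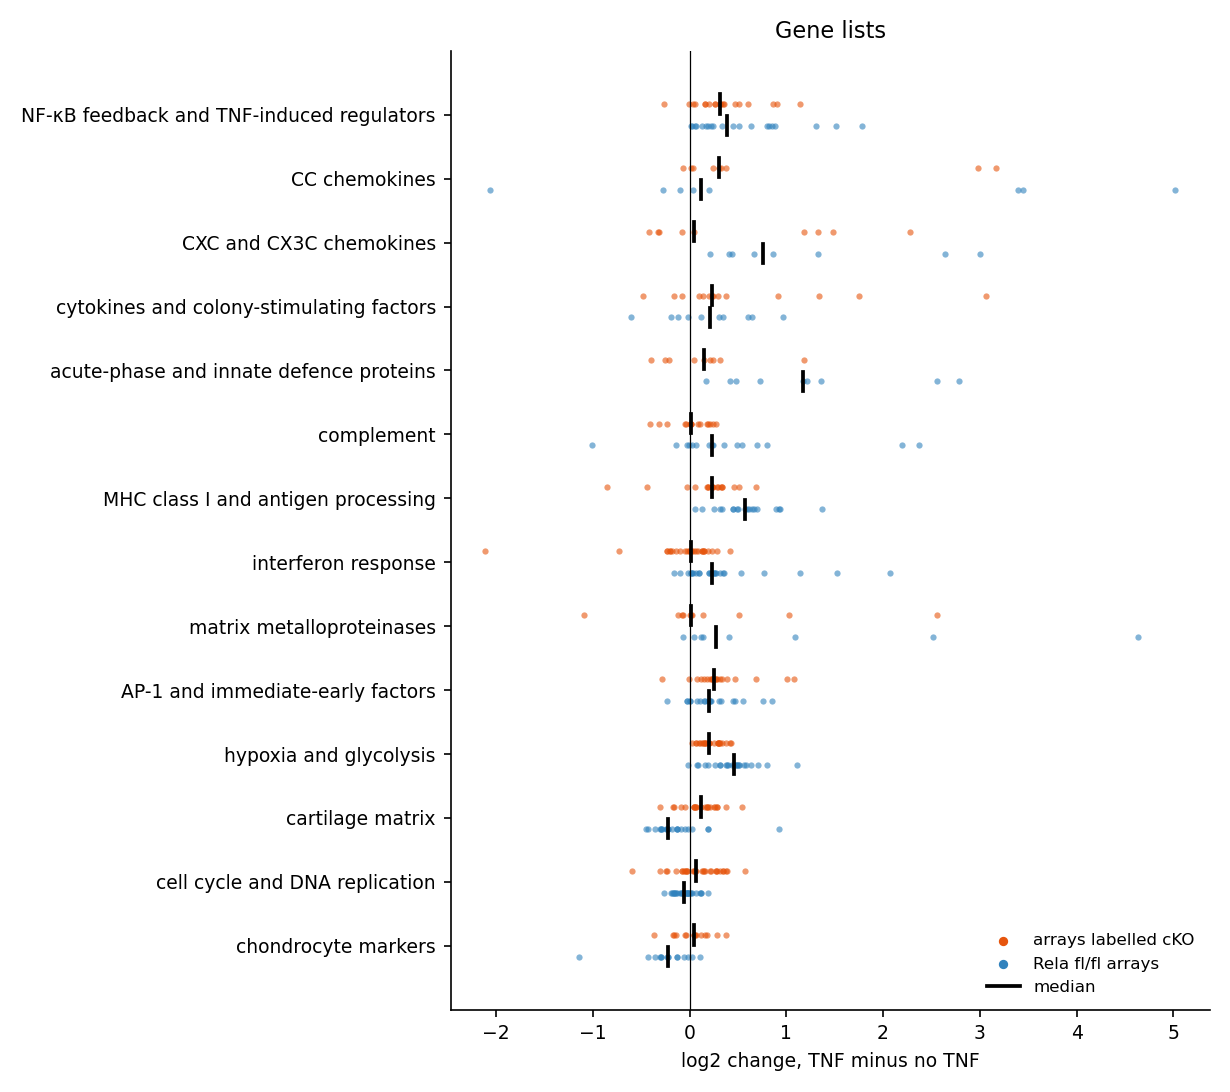
Log2 change with TNF (horizontal axis) of the measured members of 14 gene lists, 1 point per gene, on the cKO-labelled arrays (orange) and the Rela fl/fl controls (blue). Black bars are list medians, with no error bar. Acute-phase genes have medians of 0.15 and 1.18 on the cKO-labelled arrays and the Rela fl/fl controls, MHC class I genes 0.23 and 0.58, and NF-κB feedback genes 0.31 and 0.39.

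The falls were different in kind. Outside patches set within the pair, 2.08% of 7502 features with no symbol fell, against 0.180% of 12749 with one. The 114 unnamed falls that all 4 arrays measured above background had a median signal of 0.129 and 0.139 in the Rela fl/fl controls without and with TNF, and of 0.293 and 0.121 on the cKO-labelled arrays. Of these, 111 were highest on the untreated cKO-labelled array, and their median difference from the untreated Rela fl/fl array was 1.25 in log2 for that array and -0.00 for the TNF-treated cKO-labelled array. Of the 56 named rises measured on all 4 arrays, 45 were highest on the TNF-treated cKO-labelled array. Both sets were chosen by the difference between the cKO-labelled arrays, which favours 1 of these being the highest, so these counts are a description. Other probes of the same transcript, where the array carried them, repeated most of the falls. Of 47 other probes of 27 lower features, 46 had the same sign, and 30 passed 2-fold. The cause of the high signals on the array without TNF was not tested.

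**Figure D4:**
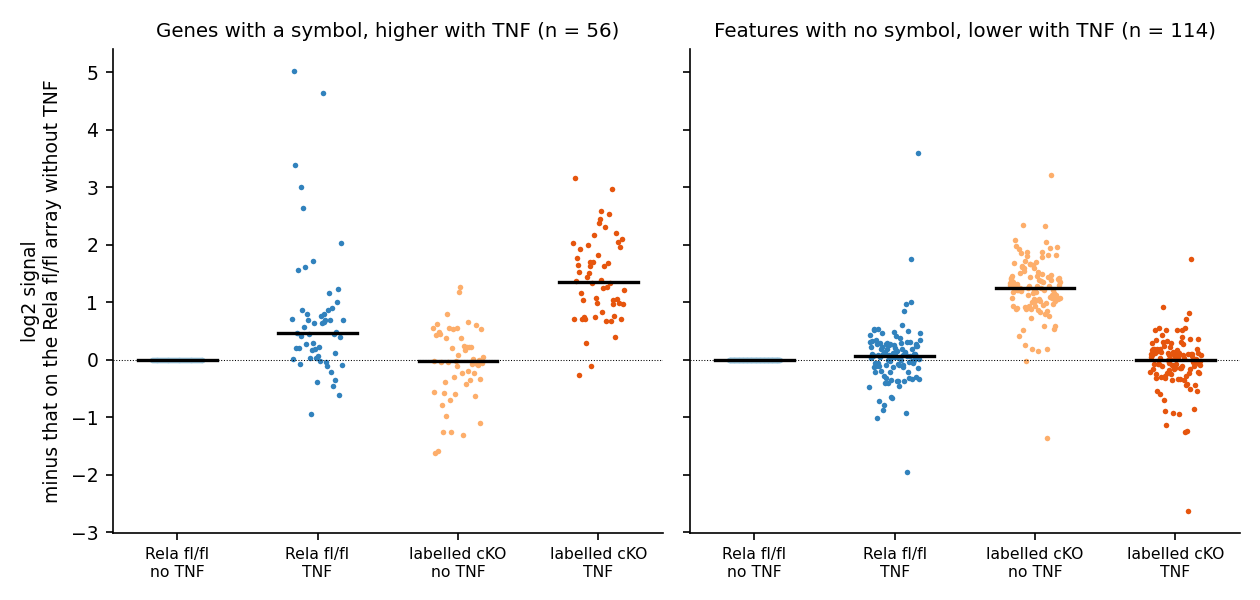
Log2 signal on each of the 4 arrays minus that on the untreated Rela fl/fl array (vertical axis), for 56 named genes higher (left) and 114 features with no symbol lower (right) with TNF on the cKO-labelled arrays, 1 point per feature and black bars for medians. The medians of the unnamed falls are 1.25 on the untreated cKO-labelled array and -0.00 on the one with TNF.

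Named falls were few. AI987944 read 0.588 and 0.587 in the Rela fl/fl controls and 1.8 and 0.535 on the cKO-labelled arrays, and fell by 1.75 on the log2 scale. It shows the same pattern as the unnamed falls, with 3 arrays alike and 1 high. Kcnq1ot1, a long noncoding RNA of an imprinted locus that stays in the nucleus, read 0.238 and 0.283 in the Rela fl/fl controls and 0.63 and 0.252 on the cKO-labelled arrays, and fell by 1.32, while another probe gave -0.75. In the Rela fl/fl controls the probes of Kcnq1ot1 disagreed, at 0.25 for the first and -3.33 for the other. In a list of 9 nuclear noncoding RNAs drawn up after these values were seen, 7 were measured on both arrays, all 7 changed by less than 0, and the median was -0.37, against -0.05 in the Rela fl/fl controls. Neat1, Malat1 and Meg3 changed by -0.39, -0.22 and -0.24.

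Sfrp2, a secreted Wnt antagonist of mesenchymal cells, read 1.63 and 1.29 in the Rela fl/fl controls and 0.403 and 0.104 on the cKO-labelled arrays, changes of -0.34 and -1.95. It was lower on the cKO-labelled arrays at each treatment, and its spot lay in a bright patch of the TNF-treated Rela fl/fl array. Lgr5, the R-spondin receptor that marks progenitor cells in several tissues, read 0.153 and 0.0684 in the Rela fl/fl controls and 0.133 and 0.0536 on the cKO-labelled arrays, changes of -1.17 and -1.31. It was the only named gene at least 2-fold lower in both genotypes outside the patches of all 4 arrays. Fras1, a protein of the epithelial basement membrane, read 0.177 and 0.109 and then 0.23 and 0.0939, changes of -0.70 and -1.29. Sfrp2 and Lgr5 were the 2 falls among 18 genes of Wnt antagonists and targets, whose median was -0.11. Aspn, a small leucine-rich proteoglycan, changed by -0.89 on the cKO-labelled arrays and by -0.82 in the Rela fl/fl controls. Of the 20 largest named falls, 10 had their spot in a bright patch of the untreated Rela fl/fl array and 9 in a patch set within the pair, and their part in those falls was not tested. Of the 20 largest rises, 19 were read by 1 spot, and 0 of these lay in patches set within the pair. In a bright patch of the untreated Rela fl/fl array lay 5 of these rises. In one of the TNF-treated Rela fl/fl array lay 4, against 1 of the falls.

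The rises in the 2 genotypes overlapped in part. In the Rela fl/fl controls, 208 of 20621 features were higher, which is 1.01%, and 320 were lower, which is 1.55%. Without patches these shares were 0.361% and 0.22% of 17716. Over 16117 features measured on all 4 arrays outside the patches of each, 57 were higher on the cKO-labelled arrays and 54 in the Rela fl/fl controls, and 9 were higher on both, which is 15.8% of the first set and 16.7% of the second. The shared named genes were Ccl2, Ccl5, Cxcl1, Cxcl5, Mmp3, Il1rl1, Ecscr and U90926. Of 115 and 34 lower features, 1 was shared. Of 42 named genes higher on the cKO-labelled arrays, 24 changed by less than 1.5-fold in the Rela fl/fl controls, and the median change was 1.27 on the cKO-labelled arrays and 0.43 in the Rela fl/fl controls. Conversely, of 45 named genes higher in the Rela fl/fl controls, 28 changed by less than 1.5-fold on the cKO-labelled arrays, where their median was 0.35 against 1.35. These counts are to be read against all named genes outside the patches of each pair. In the Rela fl/fl controls 210 of 11615 were at least 1.5-fold higher and 171 lower. On the cKO-labelled arrays 246 of 12999 were at least 1.5-fold higher and 193 lower, so most genes changed by less than 1.5-fold in each pair. Choosing genes by their size in 1 pair of arrays makes the other median smaller, in whichever pair they are chosen. The differences between the genotypes were not tested. Xist, the noncoding RNA that coats the silenced X of female cells, read 0.719 and 0.755 in the Rela fl/fl controls and was not well above background on either cKO-labelled array. The sex of the animals and the genotype cannot be told apart in the comparison of the genotypes, while both cKO-labelled arrays were alike in this respect.

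**Figure D5:**
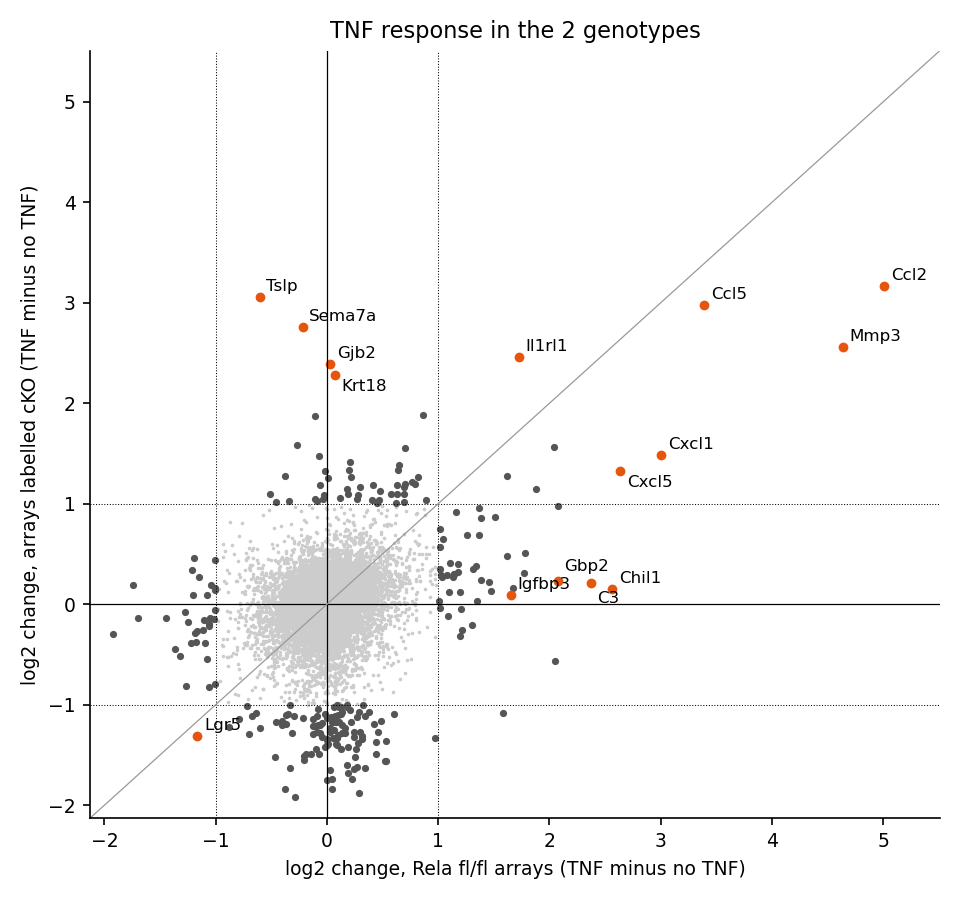
Log2 change with TNF on the cKO-labelled arrays (vertical axis) against that in the Rela fl/fl controls (horizontal axis) for 16117 features outside the patches of all 4 arrays. Dark and orange points passed 2-fold in at least 1 genotype, dotted lines mark 2-fold and the diagonal equal changes. Ccl2 and Mmp3 lie far below the diagonal at 3.17 and 2.56, Il1rl1 lies above it, and Tslp and Sema7a rise on the vertical axis only.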

How the data were processed

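Labelled RNA was hybridised to a 1-colour Agilent mouse array (SurePrint G3, annotated by its makers on mm9). Per-spot intensity values were deposited by the authors as exported from Agilent Feature Extraction 10.10.1.1, with background subtracted and spatial trends removed, together with a series table of the same intensity times 1 factor per array, which was not used for values. The log2 intensity was lowered by each array's 75th percentile over transcript spots, outlier spots were left out, repeated spots were averaged, and each gene was read from its brightest probe (mean of 4 arrays). No array had saturated spots (0). Accessions gave symbols for 27235 of 55681 probes through the RefSeq table of GRCm38.p6. A gene was counted at 2-fold (1 in log2) when it was well above background on both arrays. Where it was so on 1 array only, the fold is a bound, taken against the higher of the dimmer array's own signal and its lowest signal well above background. No columns of other samples were present (0).

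A patch was a place where, of the 54 neighbours of a spot (up to 5 rows and 2 columns away), at least 3 were 2-fold or more brighter on 1 array than on any other, after log2 values had been floored at -4.5. The technical spread came from probes spotted 10 times (399 on the array). With 1 array per group no p-values were computed, and the number of arrays limits the precision.

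The members, the 44 gene lists and the rules were chosen with earlier results of these data known. Named genes were the 20 largest rises and 20 largest falls with a symbol outside patches, the 10 largest bounds in each direction, the 2 extremes of each list, list members past 2-fold, genes the study names and the 10 genes that differed most between genotypes, and further genes were picked from the lists after their values were seen. Alternatives covered scaling, normexp (offset 50), filters, patches and fold limits (1.5 and 3). The counting steps were tested on simulated data. Python 3.11.15, numpy 2.4.6, pandas 2.3.3, matplotlib 3.10.9, R 4.3.3 and limma 3.58.1 were used.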

Additional observations from a re-analysis of the deposited data

Results flagged for a closer look

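Among named genes outside the patches of all 4 arrays, 6 passed 2-fold with TNF in 1 genotype and moved the other way by over 2 technical spreads in the other, each with 1 array per group, and the difference was not tested for any of these. The cytokine gene Tslp changed by 3.06 in log2 on the cKO-labelled arrays and by -0.61 on the Rela fl/fl controls. The keratin gene Krt17 changed by 1.27 and -0.38. Sh2d5 changed by 1.02 and -0.46. Spata21 changed by 1.03 and -0.34. Tox4 changed by 0.46 and -1.19, while its other probe gave -0.08 and 0.05. Klra1 changed by -0.56 and 2.05.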

How the results depend on the processing

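On the cKO-labelled arrays, 100 features were higher and 482 lower with TNF, and 12 were higher and 25 lower in both genotypes. Without scaling of the arrays 64 were higher. With normexp 45 were higher and 210 lower, and 12 were lower in both genotypes. With a filter on the brighter array only, 189 were higher and 1064 lower, 93 were lower in both genotypes, and the median of the CC chemokines was 0. With no filter on dim probes, 1352 were higher and 2322 lower, 104 and 374 in both genotypes, and the CC chemokine median was -0.022, against 0.30 as reported and 0.49 with quantile normalization. With both signals at or above the 75th percentile, 25 were higher and 7 lower, 3 and 0 in both genotypes. At 1.5-fold the counts were 383 and 1164, and 74 and 95 in both genotypes, and at 3-fold 25 and 210, and 4 and 12. The filters and limits let through different numbers of features, and the cause of the changes in count was not tested for any setting. Patches left out gave 200 lower and 1 lower in both genotypes, the limit of 6 bright neighbours 262 and 5, and genes with a symbol only 155 and 13. Of the alternatives chosen after seeing the data, leaving out patches of any of the 4 arrays gave 164 lower, and leaving out patches set within the pair gave 179. Over 246 named genes and 2769 comparisons with an alternative, 2528 moved by less than the technical spread, 237 moved further and 4 turned a change past 2-fold to the other sign. These were Adgre1, at 1.001, and Il1rap, at 0.19, each with patches left out and with the limit of 6 bright neighbours, where another probe stood for the gene. Counting changes under 2-fold too, 26 of the named genes had the other sign in at least 1 alternative, 10 of these without scaling. Within the cKO-labelled arrays no paired analysis was possible because each group has 1 array, and no test was run. For the same reason no array could be left out. Signal over background limits the low values: below a mean signal of 0.1, 52.1% of the features lay within 2 technical spreads, against 87.9% at 10 or more.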
